A study of Mus musculus with 6 samples.

Results

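Egr1, Egr3, Nr4a2, Nr4a3 and Klf6 encode transcription factors of the immediate early class, and all 5 were more abundant in reperfused heart muscle of mice that drank trimethylamine N-oxide (TMAO) than in that of mice that did not. They were taken by symbol from the 149 genes of the authors' deposited table, where each symbol stands once. That table lists genes with an adjusted p (FDR) of at most 0.05 and a change of at least 2-fold between the groups, so the difference described here is also what brought these genes into it. Fold changes are therefore given as a description, with no test. The FDR column of the authors' deposited table implies that 12721 genes were tested, of which the 149 are 1.17%. The genes outside the table were not analysed here.

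Both groups consisted of male C57BL/6 mice, labelled wild type, in which a ligature closed the left coronary artery (anterior descending branch) for 45 min, followed by 24 h of renewed flow. Mice of the TMAO+IR group also had 0.12% TMAO in their drinking water for 4 weeks before and throughout ischaemia-reperfusion (IR), while the IR mice had ischaemia-reperfusion without TMAO. Poly(A)-selected RNA from the injured region was sequenced in 3 libraries per group. The labels number these libraries without naming animals, so their spread may be technical, and no library from an uninjured heart was analysed here.

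Immediate early genes are switched on within minutes of a stimulus because the proteins that activate them are already present in the cell. Kinase cascades reach their promoters through serum response factor with its partners and through the cAMP response element binding protein CREB. EGR proteins carry zinc fingers that read GC-rich DNA, NR4A proteins are orphan nuclear receptors that act without a known natural ligand and are controlled mainly by their amount, and KLF6 is a Krüppel-like zinc finger protein that binds GC-rich promoters. In rodent tissue Egr1 is known as an early responder to ischaemia that turns on inflammatory and procoagulant genes, and Nr4a genes are known to respond to catecholamines in muscle.

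Library sizes, recovered from the ratio of counts to FPKM (a level scaled to transcript length and library size), lay between 18370997 and 21534145 fragments in TMAO+IR and between 20681799 and 22442237 fragments in IR. The listed genes together took 0.678% to 1.08% of the fragments in TMAO+IR and 0.33% to 0.505% in IR. Levels below are FPKM. Fold changes set TMAO+IR over IR and come from an edgeR fit to counts, with a standard error (SE) on the log2 scale. That SE follows the common trend of the listed genes rather than the spread of each gene, so the values of every library stand beside it. With 3 libraries against 3, an exact permutation test could not give a 2-sided p below 0.10 for a single gene.

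Egr1, the founding member of the EGR family, was the most abundant of the 5. Its level was 122.06, 175.54 and 90.62 FPKM in the TMAO+IR libraries, against 42.72, 64.82 and 61.51 FPKM in the IR libraries. Replicate 2 was the highest library in each group, and the lowest TMAO+IR library lay 1.40 times above the highest IR library, so the groups did not overlap. The means were 129 ± 42.9 FPKM in TMAO+IR and 56.4 ± 11.9 FPKM in IR (SD, n = 3 each), and the fold change from counts was 2.38 (log2 1.25 ± 0.43). In the authors' deposited table its FDR was 0.00261. In bulk tissue, more cells that express a gene and more RNA per cell cannot be told apart. Egr1 (ENSMUSG00000038418) lies on chromosome 18 and has 2 annotated transcripts.

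Egr3, whose protein binds the same kind of site as EGR1, was present at a far lower level. It stood at 5.24, 6.25 and 3.12 FPKM in TMAO+IR, against 1.86, 2.71 and 1.59 FPKM in IR. Again replicate 2 was highest in each group, and TMAO+IR replicate 3 lay only 1.15 times above IR replicate 2. The mean was 4.87 ± 1.60 FPKM in TMAO+IR and 2.05 ± 0.584 FPKM in IR (SD, n = 3 each), with a fold change from counts of 2.37 (log2 1.25 ± 0.35). In the authors' deposited table its FDR was 0.00208. These values rest on 323, 443 and 237 counts in TMAO+IR and on 130, 188 and 135 counts in IR, so counting error alone is 8.77% in IR replicate 1, the library with the fewest Egr3 counts. Egr3 (ENSMUSG00000033730) lies on the plus strand of chromosome 14 at 70077203 to 70082614 of GRCm38.

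The fold changes of the EGR genes were close to each other although their levels were far apart. The Egr1 level was 23.3, 28.1 and 29.0 times that of Egr3 in the TMAO+IR libraries, against 23.0, 23.9 and 38.7 times in the IR libraries. The ratio averaged 26.8 ± 3.08 in TMAO+IR and 28.5 ± 8.81 in IR (SD, n = 3 each), a gap smaller than the spread within either group. IR replicate 3 had the highest ratio. In this library the counts behind 1 FPKM, described below, deviated by 0.14 (log2) for Egr3 and by -0.11 for Egr1. These deviations raise its ratio from FPKM relative to that from counts.

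**Figure D1:**
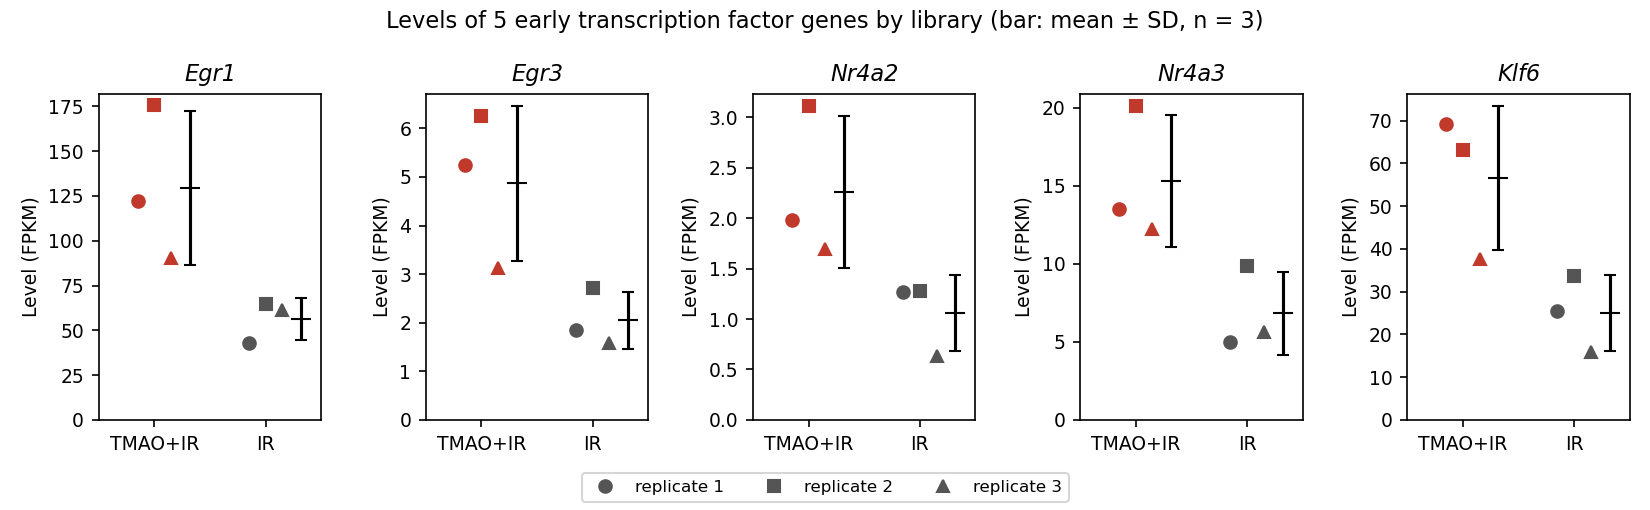
Level in FPKM of each gene in each library, with TMAO+IR (red) left of IR (grey), symbols for replicate numbers and a black bar for the mean ± SD (n = 3). Every TMAO+IR library lies above every IR library for all 5 genes, and the closest pair is Klf6 in TMAO+IR replicate 3 (37.53 FPKM) and IR replicate 2 (33.78 FPKM).

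Nr4a3, also known as NOR1, was the more abundant of the NR4A genes in the table. Its level was 13.52, 20.12 and 12.25 FPKM in TMAO+IR, against 4.99, 9.89 and 5.66 FPKM in IR. One library stood well above the others in each group, replicate 2 both times, and the lowest TMAO+IR library lay 1.24 times above the highest IR library. The mean was 15.3 ± 4.23 FPKM in TMAO+IR and 6.85 ± 2.66 FPKM in IR (SD, n = 3 each). The fold change from counts was 2.24 (log2 1.17 ± 0.41). The authors' deposited table gives it an FDR of 0.00769. Nr4a3 (ENSMUSG00000028341) spans 41295 bp on the plus strand of chromosome 4, at 48045153 to 48086447 of GRCm38.

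Nr4a2, also known as NURR1 and best known for its role in dopamine neurons, had the lowest level and the smallest fold change of the 5 genes. It stood at 1.98, 3.11 and 1.69 FPKM in TMAO+IR, against 1.27, 1.28 and 0.63 FPKM in IR. The highest value came from TMAO+IR replicate 2 and the lowest from IR replicate 3, and the groups did not overlap. The mean was 2.26 ± 0.750 FPKM in TMAO+IR and 1.06 ± 0.372 FPKM in IR (SD, n = 3 each), with a fold change from counts of 2.16 (log2 1.11 ± 0.33). The authors' deposited table gives it an FDR of 0.0317, the highest of the 5, and a log2 fold change of 1.09, the nearest of the 5 to the limit of the table. Counts were 99, 213 and 116 in TMAO+IR and 80, 84 and 44 in IR, which gives a counting error of 15.1% in IR replicate 3, the library with the fewest Nr4a2 counts. Nr4a2 (ENSMUSG00000026826) occupies positions 57106830 to 57124003 of chromosome 2 on GRCm38, minus strand.

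Inside a library, Nr4a3 was 6.83, 6.47 and 7.25 times as abundant as Nr4a2 in TMAO+IR, against 3.93, 7.73 and 8.98 times in IR. The mean ratio was 6.85 ± 0.390 in TMAO+IR and 6.88 ± 2.63 in IR (SD, n = 3 each). The means differed by less than the spread within either group, and the spread was wider in IR, where replicate 1 was low.

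The promoters of these receptor genes are shown because CREB is a known activator of the family. RefSeq promoter sequences on GRCm38.p6 were matched for 3 of the 5 genes, Nr4a2, Nr4a3 and Klf6. Below, capitals mark the core of the cAMP response element, TGACG, on either strand, so that CGTCA is the same core read on the other strand. The bases shown end where the first annotated transcript of either RefSeq or GENCODE begins.
Nr4a2, chr2:57124004-57124253, minus strand: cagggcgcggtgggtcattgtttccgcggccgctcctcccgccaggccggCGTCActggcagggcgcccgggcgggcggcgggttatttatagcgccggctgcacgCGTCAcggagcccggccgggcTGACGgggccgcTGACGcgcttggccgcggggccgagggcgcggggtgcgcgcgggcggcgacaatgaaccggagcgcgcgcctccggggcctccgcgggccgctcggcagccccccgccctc
Nr4a3, chr4:48045055-48045152, plus strand: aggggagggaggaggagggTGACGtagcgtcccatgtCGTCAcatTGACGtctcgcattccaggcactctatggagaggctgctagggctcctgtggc

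Each of these promoters held 4 such cores in the 250 bases before the RefSeq start. In Nr4a2 they began 200, 144, 123 and 111 bases upstream, and in Nr4a3 they began 231, 213, 205 and 147 bases upstream, the last of them beyond the stretch shown. Of all 32851 RefSeq windows of this length, 17.8% held at least 1 core on either strand and 0.137% held at least 4. The full palindrome TGACGTCA was not in either window, and 1.55% of all windows hold it. A site of the form GCGNGGGCG, a loose pattern for EGR proteins in which N is any base, began 74 bases upstream in Nr4a2. There it read GCGCGGGCG, and whether EGR proteins bind this sequence was not tested. The pattern was found in 4.70% of all windows. It was not in the Nr4a3 window. The NR4A monomer site AAAGGTCA, present in 1.34% of windows, and the CArG box of serum response factor, present in 1.47%, were not in these windows. The motifs were chosen with the sequences in view, and a match describes letters, not a bound site.

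Klf6, described in rat liver stellate cells as a gene induced by injury and known to activate genes of transforming growth factor beta signalling, had the second highest level. It stood at 69.3, 63.07 and 37.53 FPKM in TMAO+IR, against 25.46, 33.78 and 15.89 FPKM in IR. TMAO+IR replicate 3 was the lowest library of its group and IR replicate 2 the highest of its own, and they came within 1.11 times of each other without overlapping. The mean was 56.6 ± 16.8 FPKM in TMAO+IR and 25.0 ± 8.95 FPKM in IR (SD, n = 3 each). The fold change from counts was 2.23 (log2 1.16 ± 0.42). The authors' deposited table gives it an FDR of 0.00194, the lowest of the 5. Klf6 (ENSMUSG00000000078) lies on the plus strand of chromosome 13 at 5861482 to 5870394 of GRCm38.

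The Klf6 promoter is shown because its motifs differ from those of the receptor genes. Here capitals mark CCAAT, the motif of the general factor NF-Y, on either strand, with ATTGG as its reverse.
Klf6, chr13:5861239-5861481, plus strand: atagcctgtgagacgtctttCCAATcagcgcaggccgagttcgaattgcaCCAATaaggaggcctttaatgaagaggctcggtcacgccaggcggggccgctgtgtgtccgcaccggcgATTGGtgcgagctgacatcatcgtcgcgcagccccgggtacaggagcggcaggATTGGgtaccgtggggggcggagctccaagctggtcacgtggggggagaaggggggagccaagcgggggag

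It held 4 CCAAT motifs, which began 230, 200, 131 and 78 bases before the RefSeq start. At least 1 was present in 33.8% of all windows and at least 4 in 0.840%. No TGACG core was in this window, as in most windows, since 17.8% of all windows hold it. Neither receptor window held CCAAT, which most windows also lack. The E-box CACGTG began 43 bases upstream of the Klf6 start and was found in 6.02% of all windows. All 3 promoter windows held the GC box GGGCGG, as did 32.7% of all windows. The only GC box of Nr4a3 began 91 bases upstream, beyond the stretch shown, among the 152 bases inside the annotated GENCODE gene. Over the full windows of 250 bases, GC content was 80.0% for Nr4a2, 63.6% for Nr4a3 and 64.8% for Klf6. The median over all windows was 52.4%.

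Klf6 was also the gene in which counts and FPKM differed most between libraries. After removal of each library's size, the counts behind 1 FPKM were 0.21 (log2) above the mean of the gene in IR replicate 3 and 0.10 below it in TMAO+IR replicate 1. For Egr3 IR replicate 3 deviated by 0.14 and for Egr1 the same library by -0.11, whereas no library deviated by more than 0.012 for Nr4a3. For the 86 genes that reached 1 FPKM in all libraries, the median of the largest deviation was 0.051. Annotated Klf6 transcripts run from 799 to 4225 bp, and why the ratio differed was not tested. The effect on the group difference was small: the log2 ratio of group means was 1.18 from FPKM and 1.16 from counts for Klf6, and 1.20 from FPKM and 1.25 from counts for Egr1.

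**Figure D2:**
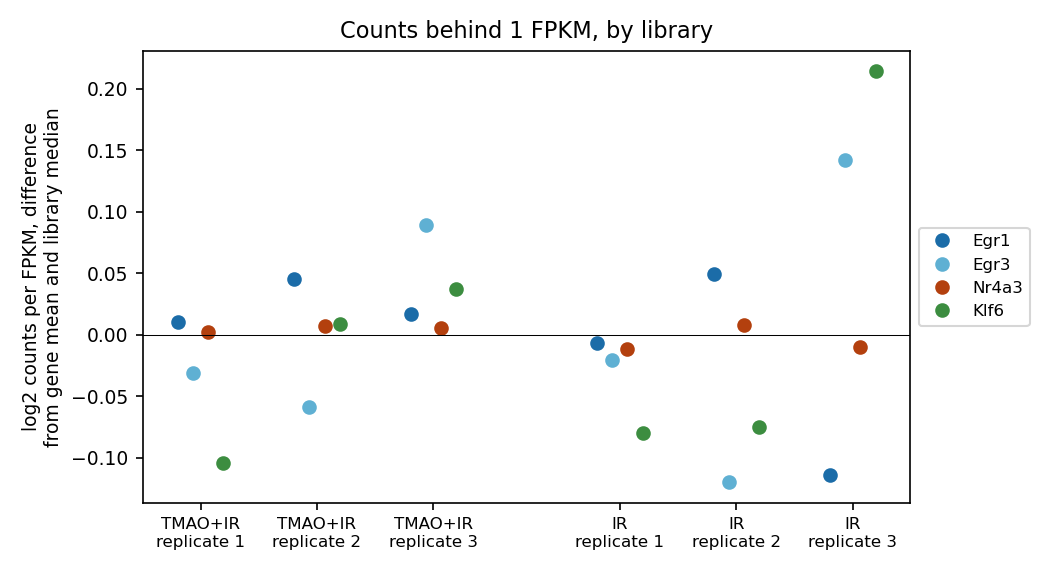
Counts behind 1 FPKM in each library as a log2 difference from the mean of the gene, after removal of the library median, for the 4 genes that reached 1 FPKM in all libraries. Nr4a3 stays within 0.012 of 0 in all 6 libraries, while Klf6 reaches 0.21 and Egr3 0.14 in IR replicate 3.

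The order of levels, Egr1, Klf6, Nr4a3, Egr3 and Nr4a2 from high to low, was the same in all 6 libraries. Within each group the ranges of neighbours in this order did not overlap. The closest were Egr3 and Nr4a2 in TMAO+IR, where the lowest Egr3 library had 3.12 FPKM and the highest Nr4a2 library 3.11 FPKM. Among the 149 listed genes Egr1 ranked 5 by mean level in both groups, Klf6 ranked 14 in TMAO+IR and 16 in IR, and Nr4a3 ranked 35 in TMAO+IR and 37 in IR. Egr3 and Nr4a2 stood lower, at 67 and 96 in TMAO+IR and at 78 and 102 in IR.

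All 5 genes had a log2 fold change of at least 1 from counts, as had 77.2% of the listed genes in this direction and 93.3% in either direction. All 5 also had scaled counts (counts divided by library size) that did not overlap between groups, as had 80.5% of the listed genes in this direction and 97.3% in either direction. Since the table was selected on this difference, nothing is read from these counts. The log2 fold changes of the 5 genes ran from 1.11 to 1.25 with a median of 1.17, beside a median of 1.21 over the 122 listed genes that were higher in TMAO+IR. By fold change in the authors' deposited table they ranked from 57 (Egr3) to 93 (Nr4a2) among those 122 genes.

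**Figure D3:**
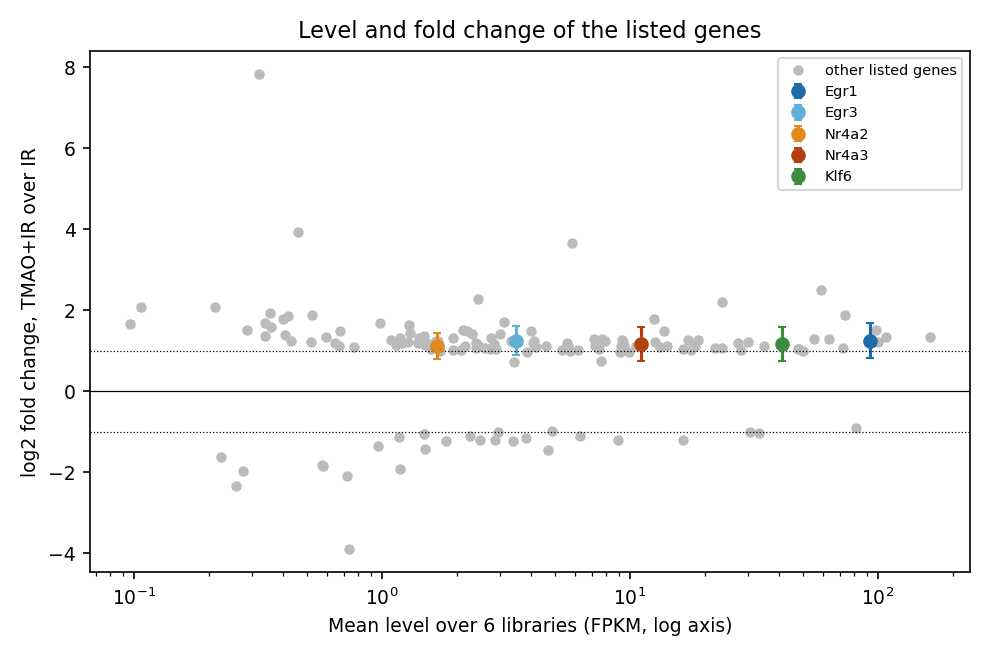
Fold change from counts (log2, TMAO+IR over IR) against mean level over the 6 libraries (FPKM, log axis) for the 149 listed genes. The 5 early transcription factor genes, with bars for the SE, lie between 1.11 and 1.25 on the log2 scale while their levels differ widely, and dotted lines mark the 2-fold limits.

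The order of libraries within a group was only partly shared by these genes, and Nr4a2 departed from it most. By scaled counts, replicate 2 of TMAO+IR was highest for Egr1, Egr3, Nr4a2 and Nr4a3, and replicate 1 for Klf6. Replicate 3 was lowest for all but Nr4a2, which was lowest in replicate 1. In IR, replicate 2 was highest for all but Nr4a2, which was highest in replicate 1. Replicate 3 of IR was lowest for Egr3, Nr4a2 and Klf6, and replicate 1 of IR for Egr1 and Nr4a3. Much of the table behaved in the same way: of the 117 listed genes with a mean of at least 50 counts, 54 were highest in TMAO+IR replicate 2, 85 lowest in TMAO+IR replicate 3 and 79 highest in IR replicate 2.

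**Figure D4:**
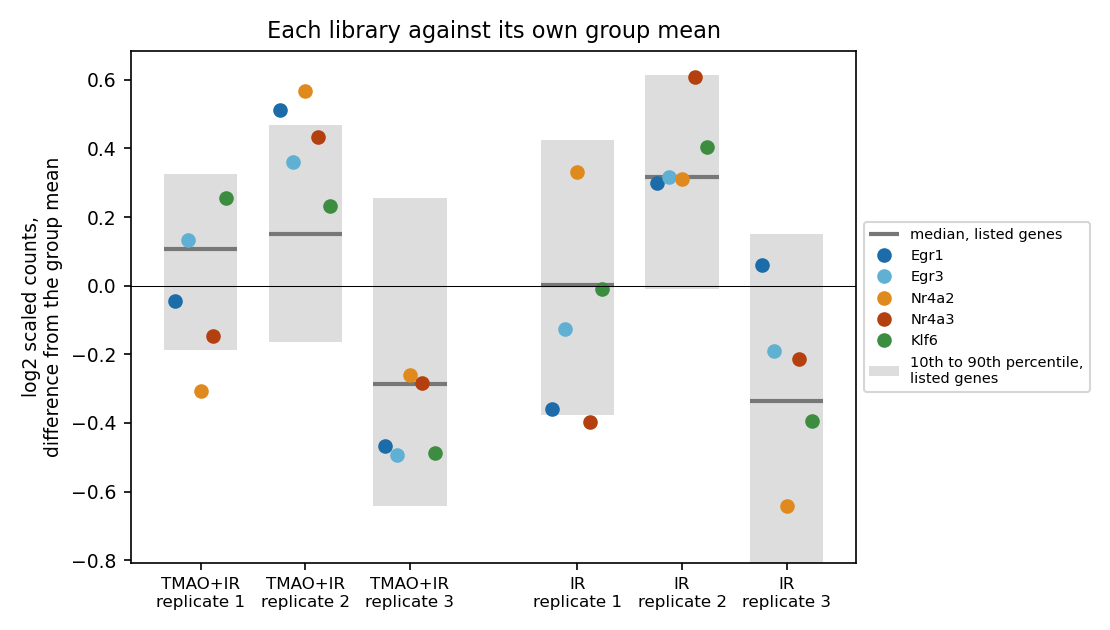
Scaled counts in each library as a log2 difference from the mean of its own group, for the 5 genes (coloured points) and for the 117 listed genes with a mean of at least 50 counts (grey bar from the 10th to the 90th percentile, with the median as a line). In TMAO+IR replicate 2 all 5 genes lie above the median of 0.149, with Nr4a2 at 0.566 and Egr1 at 0.513.

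The log2 SD between libraries was 0.49 for Egr1, 0.44 for Egr3, 0.49 for Nr4a2, 0.38 for Nr4a3 and 0.42 for Klf6 in TMAO+IR. In IR it was 0.33 for Egr1, 0.28 for Egr3, 0.56 for Nr4a2, 0.54 for Nr4a3 and 0.40 for Klf6. The median over the 117 listed genes was 0.31 in TMAO+IR and 0.43 in IR. All 5 genes thus stood above the median of the table in TMAO+IR, between the 65.0 and the 78.6 percentile, whereas in IR they ran from the 20.5 percentile (Egr3) to the 72.6 percentile (Nr4a2). These are descriptions of 3 libraries each.

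To see which listed genes shared this variation, scaled counts of each gene were set on the log2 scale against the mean of their own group, and the root-mean-square (RMS) difference over the 6 libraries was taken. Jun, the AP-1 subunit, was nearest to Egr1, at an RMS difference of 0.085, where the median over 116 genes was 0.363. Jun stood at 79.66, 133.14 and 57.14 FPKM in TMAO+IR, against 28.64, 42.57 and 40.22 FPKM in IR, the same order of libraries as for Egr1. Ch25h, the cholesterol 25-hydroxylase, at 0.118, and Tnfaip6, which encodes the hyaluronan-binding protein TSG-6, at 0.139 followed.

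Tnfaip6 was also the nearest gene to Egr3, at 0.044, before Lrrc32, which presents latent transforming growth factor beta at the cell surface, at 0.068 and the interferon-inducible Ifi203 at 0.069. For Nr4a3 the nearest were Tnc (tenascin C, a matrix protein of injured tissue) at 0.110, the alarmin gene Il33 at 0.140 and the transcription factor gene Runx1 at 0.169. For Klf6 they were the platelet chemokine gene Ppbp at 0.048, the cytokine receptor kinase gene Jak2 at 0.070 and the ubiquitin ligase gene Herc6 at 0.078. For Nr4a2 the nearest genes were Chil3 at 0.170, Apold1 at 0.181 and Peg10 at 0.209, beside a median of 0.389. Among themselves, Egr3 and Klf6 were the most alike of the 5, at 0.126, beside medians of 0.28 for Egr3 and 0.27 for Klf6. Even so, Klf6 ranked only 9 among the genes nearest to Egr3, and Egr3 ranked 12 for Klf6. Egr1 and Nr4a2 were the least alike, at 0.425, above the medians of 0.363 for Egr1 and 0.389 for Nr4a2. Nr4a2 and Nr4a3, receptors of 1 family, differed by 0.376, near the median of 0.389 for Nr4a2. Nr4a2 rests on 44 to 213 counts, with a counting error of 15.1% in IR replicate 3. That error enters its RMS differences and was not removed. All of these comparisons share the same 6 libraries.

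Leaving out 1 library showed how far each fold change leaned on it. Without TMAO+IR replicate 2, 2 of the 5 genes kept a log2 fold change of at least 1, Egr3 at 1.06 and Klf6 at 1.05, while Egr1 stood at 0.95, Nr4a3 at 0.92 and Nr4a2 at 0.77. Without IR replicate 3, 3 kept it, and Klf6 stood at 0.98 and Nr4a2 at 0.86. Without IR replicate 1 Nr4a3 stood at 0.98, and without IR replicate 2 it stood at 1.54, its highest value. All 30 values from leaving out a library remained above 0, as they had to, since the groups did not overlap for any of the 5 genes. They also lay within 1 SD of the value from all libraries. Leaving out 1 of 3 libraries could hardly move a value further, so nothing is read from this.

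**Figure D5:**
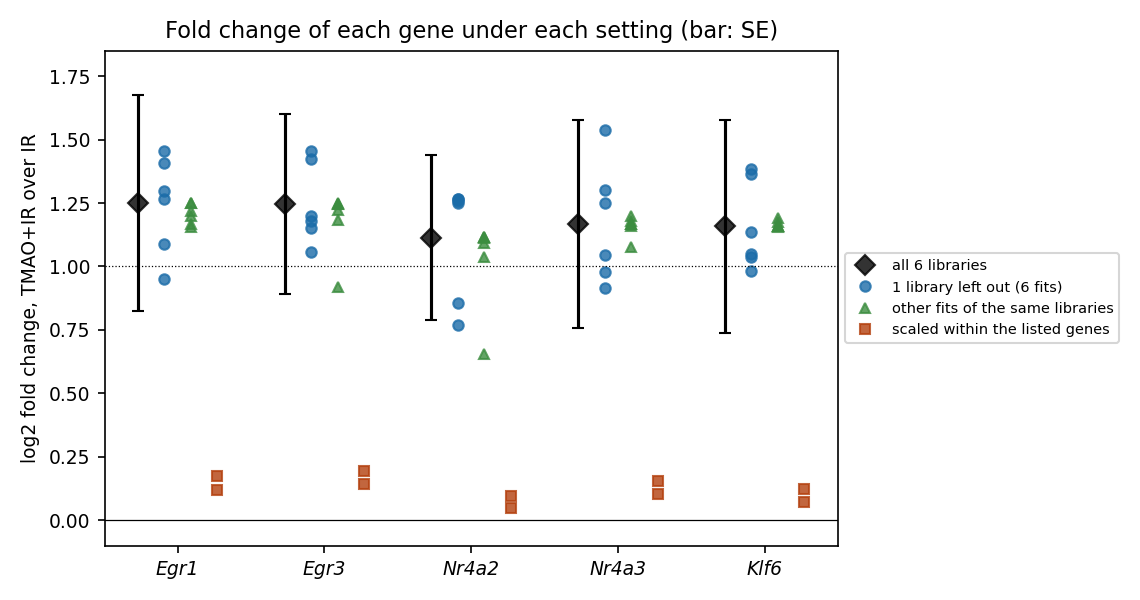
Log2 fold change (TMAO+IR over IR) of each gene with all 6 libraries (diamond, bar for the SE), with 1 library left out (circles), in other fits of the same libraries (triangles) and with scaling computed within the listed genes (squares). Circles run from 0.77 to 1.54 and had to stay above 0, since the groups did not overlap. Squares lie between 0.05 and 0.20 because that scaling centres a table selected for its change.

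Relatives of these genes were looked up in 10 pathway lists of 140 different genes. For comparison, the table holds 149 of the 12721 genes that its FDR implies (1.17%), and 122 of the 149 were higher in TMAO+IR. The lists were chosen with earlier results of these data known, so nothing is read from their counts. Of the 6 EGR genes and NAB co-repressors, which bind EGR proteins and limit them, only Egr1 and Egr3 were in the table. The NR4A family contributed Nr4a2 and Nr4a3 of 3 genes and the KLF family Klf6 of 17. Of 15 AP-1 and ATF genes, Fos, Fosl1 and Jun were listed and all 3 were higher in TMAO+IR, with log2 fold changes of 1.51, 1.27 and 1.28. The list of 16 other immediate early transcription factor genes, among them Myc, Srf and Ier2, had no member in the table. Of 26 early genes that encode other proteins, 1 was listed, Ptgs2 (cyclooxygenase 2), with 11.1 ± 2.07 FPKM in TMAO+IR and 4.76 ± 2.38 FPKM in IR (SD, n = 3 each).

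Upstream of these genes, 1 of 19 members of the ERK, SRF and CREB list was in the table. It was Rps6ka3, which encodes the kinase RSK2 that phosphorylates CREB and SRF, at 19.5 ± 4.13 FPKM in TMAO+IR and 8.64 ± 3.81 FPKM in IR (SD, n = 3 each), a log2 fold change of 1.12 ± 0.41. Downstream, 1 of 18 known EGR1 targets was listed, Thbs1 (thrombospondin 1), at 231 ± 56.0 FPKM in TMAO+IR and 92.0 ± 44.6 FPKM in IR (SD, n = 3 each). None of the 9 known KLF6 targets was listed. Of 14 heat shock genes, Hsph1, Hsp90aa1 and Dnaja1 were listed, and their summed level ran from 130.83 to 441.2 FPKM in TMAO+IR, highest in replicate 2, and from 59.24 to 111.21 FPKM in IR. Over the 149 listed genes the median log2 fold change was 1.16. Members of these lists that are not in the table were not analysed here.

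Cell type markers were mostly outside the table. A listed marker is there because it differed between the groups, so the tissue label could not be checked with these genes. Of 11 cardiomyocyte markers 1 was listed, Myh7, which encodes the beta myosin heavy chain. It stood at 27.54 to 56.46 FPKM in TMAO+IR and 6.29 to 12.52 FPKM in IR. Of 9 macrophage and monocyte markers, Ccr2 and Chil3 were listed, and their sum ran from 2.77 to 6.11 FPKM in TMAO+IR and from 1.06 to 1.83 FPKM in IR. Chil3 is also the gene nearest to Nr4a2 above. Of 8 neutrophil markers, Mmp8 was listed, at 8.89 to 11.66 FPKM in TMAO+IR and 3.53 to 6.75 FPKM in IR. Ackr1 was the listed one of 8 endothelial markers, at 1.83 to 2.58 FPKM in TMAO+IR and 0.80 to 0.88 FPKM in IR. Slc4a1 was that of 7 erythrocyte markers, at 0.08 to 0.16 FPKM in TMAO+IR and 0.23 to 0.49 FPKM in IR. The lists for fibroblasts, smooth muscle and pericytes, and lymphocytes had no member in the table. The listed markers of cardiomyocytes, endothelium, macrophages and neutrophils were higher in TMAO+IR, and that of erythrocytes was lower. They are few of each list, and 122 of the 149 genes in this selected table were higher in TMAO+IR. The other markers were not analysed here, so nothing about cell types is read from the listed ones. The part of cell composition in the result was not tested.

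In the annotation columns of the deposited table, the terms shared by at least 3 of these genes concern transcription, the binding of DNA or other nucleic acids, metal ions and the nucleus. All 5 carry the term for positive regulation of transcription from an RNA polymerase II promoter, as do 22 of the 149 listed genes, and all 5 that for a transcriptional activator of RNA polymerase II, as do 12. Nr4a2 and Nr4a3 alone among the listed genes carry the terms for fat cell differentiation and for the response to corticotropin-releasing hormone. Egr1 and Nr4a2 carry the term for response to hypoxia, as do 3 more listed genes, and Egr1 and Nr4a3 that for proliferation of smooth muscle cells, as do 5 more.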

How the data were processed

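The authors deposited whole-number counts per gene and library, FPKM values per library, the group means of FPKM, a log2 fold change that equals the log2 ratio of these means, and a p-value with its adjusted value (FDR) from their own test, per the file headers. Per the submitters' processing notes, HISAT2, Bowtie2 2.2.8, StringTie 1.3.1, edgeR, DESeq2 and fastp 0.18.0 were named with the GRCm38 build, and with no roles. The sources used here do not give the strand setting of the counting, and no annotated gene overlaps the 5 genes. T-IR columns were matched to TMAO+IR, the only other group.

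Library sizes were recovered from counts per FPKM in 86 genes that reached 1 FPKM in all libraries, and set to an absolute scale by 12 genes with 1 transcript. Counts of all 149 genes were fitted with edgeR 4.0.16 (R 4.3.3) on these sizes without a filter. The fit was tested on simulated data. Counts scaled by library size were put on the log2 scale with a pseudocount of 0.5. Identifiers were matched to GENCODE M21 and promoters to RefSeq. Named genes were the 5 genes, the 3 listed genes nearest to each and listed members of the gene lists. The genes and lists were chosen with earlier results of these data known. Alternatives were DESeq2 1.42.0, limma 3.58.1 on FPKM, other scalings, a filter, a replicate block and leaving out each library.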

Additional observations from a re-analysis of the deposited data

How the results depend on the processing

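Scaling within the listed genes, which centres a table selected for its change, moved the median log2 fold change by -1.03 (TMM) and -1.08 (DESeq2 size factors). With TMM, Egr1, Egr3, Nr4a2, Nr4a3 and Klf6 stood at 0.17, 0.20, 0.10, 0.16 and 0.12, and with DESeq2 size factors at 0.12, 0.14, 0.047, 0.10 and 0.073. Under both, 0 of the 5 genes reached a log2 fold change of 1, and 35 (TMM) and 34 (DESeq2) of the listed genes did, against 139. Under TMM scaling 0 of the 5 genes and 46 listed genes did not overlap between groups, against 5 and 145. With limma on log2(FPKM + 1), which shrinks low genes, 3 of the 5 and 51 of the listed genes reached 1. Leaving out 1 library left 2 to 5 of the 5 genes and 100 to 143 listed genes at 1 or more. With the replicate block the 5 genes stood between 1.12 and 1.22, and 142 listed genes reached 1. Deviations from the group mean correlated at -0.315, 0.33 and -0.076 between libraries of the same number. In TMAO+IR only replicate 2 matched its own number best. Deviations within a group depend on each other, so these correlations cannot decide whether libraries of the same number were paired. The labels give only the number. The other 30 values of the 5 genes, among them the authors' mean FPKM ratio, added after the data were seen, stayed within 1 SD. Counting error was largest for Nr4a2, which had 44 counts in IR replicate 3.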
